A study of Mus musculus with 8 samples.

Results

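The 10 genes described here encode transcription factors and related proteins of the immediate early response: *Fos*, *Fosb* and *Fosl2* of the FOS family, *Jun*, *Junb* and *Jund* of the JUN family, *Egr1*, *Egr2* and *Egr3* of the early growth response (EGR) family, and *Ier2*, which encodes a small nuclear protein. They were taken from the deposited table by gene symbol, from a list drawn up with earlier results of these data known, and they make up 10 of the 42775 genes in the deposited table. The tissue was the cochlea of Swiss Webster wildtype mouse embryos, cultured as an explant. The study used the drug treatment to look for genes regulated by the Wnt pathway. The control group (CTL) was treated with vehicle (DMSO), and the CHIR group was treated with 10 μM CHIR99021, an inhibitor of the kinase GSK3 that activates Wnt signaling, for 6 h in either case. Each group held 4 biological replicates, of which numbers 1 and 3 were female and numbers 2 and 4 were male. The labels give E14.0 for the source and E12.5 for the explants at culture day 1, and the study's methods give E14.0 for the tissue sequenced. The explants were whole tissue, so in these bulk libraries fewer cells of a type and less RNA per cell cannot be told apart.

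Immediate early genes are transcribed within minutes of a stimulus, from factors already present in the cell, and their transcripts are short-lived. FOS and JUN proteins pair through leucine zippers to form activator protein 1 (AP-1), and EGR proteins bind GC-rich DNA through zinc fingers. Serum response factor (SRF) with its ETS partners, acting at CArG boxes, and CREB, acting at cyclic AMP response elements (CRE), are textbook inducers of many of these genes. GSK3 phosphorylates JUN family proteins, so the enzyme that CHIR99021 inhibits acts on AP-1 directly at the protein level, which RNA libraries do not measure. In the inner ear, *Egr2* is also known for its role in Schwann cells, which accompany the cochlear nerve.

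Expression was given as CPM, the reads of a gene per 1000000 reads assigned to genes. Assigned reads were 66483661 to 89269187 in CTL and 64905007 to 75434130 in CHIR, so that 1 read was worth 0.0112 to 0.0154 CPM and no gene of the 10 had fewer than 59 reads in a library. All 10 passed the minimum of a mean of 1 CPM, as did 14264 genes in all, and differences were tested with limma on log2(CPM + 1) with Benjamini-Hochberg adjustment over those genes. A call means an adjusted p under 0.05. Fold changes are on this scale, which understates the change of genes at low CPM. The 7 Wnt target genes used to check the treatment were higher in CHIR, with a median log2 fold change of 1.90. *Nkd1*, a feedback inhibitor, went from 121 ± 16.5 to 572 ± 43.1 CPM (mean ± SD, n = 4). *Axin2*, a direct Wnt target, went from 87.8 ± 9.99 to 266 ± 20.2 CPM (mean ± SD, n = 4). The otic epithelium was represented by *Oc90*, at 2482 ± 100.3 CPM in CTL, and by *Cldn6*, at 368 ± 27.8 CPM (SD, n = 4). Replicates 1 and 4 of both groups stood apart from replicates 2 and 3, with 22838 to 24249 genes having a read in the first pair of numbers and 20301 to 20698 in the second.

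The sequences upstream of 7 of the genes were read from the RefSeq promoter table (GRCm38.p6). *Egr1*, *Egr3* and *Ier2* were not among the 7, so the motif search did not cover them. From the 7, 5 stretches are shown because they hold the matches described next to the expression values. Each runs 5′ to 3′ along the gene's strand, and capitals mark a match. *Egr2* is shown from 100 to 11 bases before its RefSeq start (chr10:67537770-67537859, plus strand), with a CArG box followed by a CRE core on the opposite strand. *Junb* is shown from 120 to 21 bases before its start (chr8:84978769-84978868, minus strand), *Fos* from 100 bases to 1 base before (chr12:85473790-85473889, plus strand) and *Fosb* from 100 to 7 bases before (chr7:19310052-19310145, minus strand). These 3 hold the CRE core TGACG, and *Fosb* also an EGR site. *Jun* is shown from 100 bases to 1 base before its start (chr4:95052223-95052322, minus strand), with the variant site TGACATCA.
Egr2: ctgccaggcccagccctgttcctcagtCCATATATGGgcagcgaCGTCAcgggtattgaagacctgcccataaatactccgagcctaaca
Junb: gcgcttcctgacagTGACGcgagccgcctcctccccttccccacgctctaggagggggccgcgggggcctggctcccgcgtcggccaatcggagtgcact
Fos: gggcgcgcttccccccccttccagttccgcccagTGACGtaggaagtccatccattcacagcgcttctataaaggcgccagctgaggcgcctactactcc
Fosb: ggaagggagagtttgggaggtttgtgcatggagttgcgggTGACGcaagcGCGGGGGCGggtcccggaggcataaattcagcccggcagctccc
Jun: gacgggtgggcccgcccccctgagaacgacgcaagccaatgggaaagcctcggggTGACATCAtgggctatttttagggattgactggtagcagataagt

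Across the 250 bases before the start, 8 motifs were searched on either strand, and their frequency was counted in the same window of all 32851 promoters in the table. Sequence outside this window was not searched, so a gene without a match may still hold the site elsewhere. The CArG box was matched in 1 of the 7 genes, *Egr2*, from 73 to 64 bases before the start, and in 1.47% of all promoters. The CRE core TGACG, which is also part of the full site TGACGTCA, was matched in 4 genes, *Fos*, *Fosb*, *Junb* and *Egr2*, and in 17.8% of all promoters. The full site was matched in 0 of the 7 and in 1.55% of all promoters. TGACATCA was matched in *Jun* alone, 45 to 38 bases before the start, and in 2.93% of all promoters. GCGNGGGCG, the site EGR proteins bind, was matched in *Fosb*, 50 to 42 bases before the start, in *Fosl2*, 79 to 71 bases before, and in 4.70% of all promoters. The RefSeq start of *Fosl2* lies inside the gene as GENCODE has it, and all 250 bases of its window are exonic there, so that match is within an annotated exon. The AP-1 site TGANTCA was matched in 0 of the 7 and in 6.75% of all promoters. For the TCF/LEF sites of the Wnt pathway, CTTTGAT and CTTTGAA, there were 0 matches in the 7 genes, against 3.21% and 4.46% of all promoters. The full CRE contains the core, and no other pair of the matches in these genes overlapped. In *Jund* none of the 8 motifs was matched in its window, which lies before a RefSeq start that differs from the GENCODE start of the gene. The RefSeq starts of *Fosb* and *Junb* also match 0 GENCODE transcript starts. That of *Egr2* matches 2, and it lies inside the gene as GENCODE has it.

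**Figure D1:**
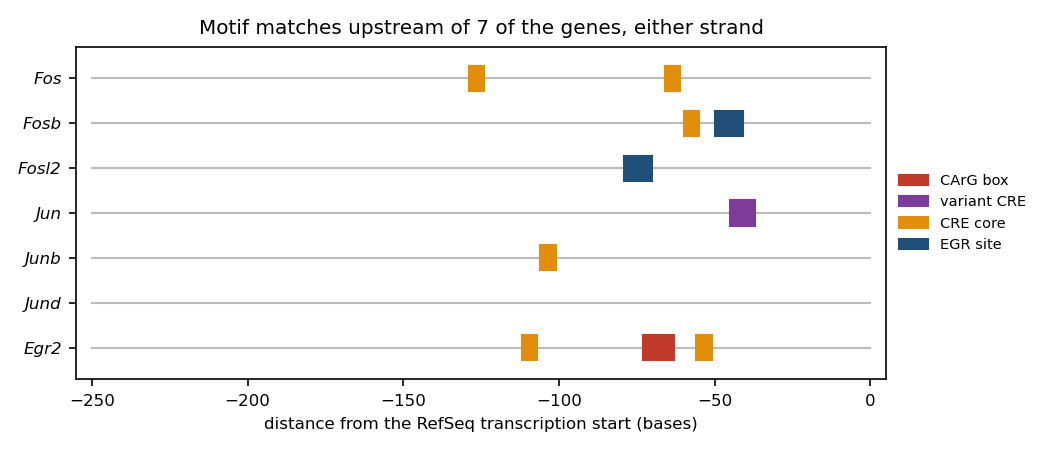
Matches to the motifs in the 250 bases before the RefSeq transcription start of 7 genes, by distance from the start in bases; each box is a match and its color the motif. The CArG box appears in Egr2 alone, CRE cores appear in 4 genes, and Jund has no match.

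After 6 h of CHIR99021, 4 of the 10 genes were higher, *Egr1*, *Ier2*, *Fosl2* and *Egr2*, 0 were lower and 6 did not pass the test. Among all genes tested, 12.3% were called higher and 21.4% were called lower, 33.7% in either direction. With the trimmed mean of M-values (TMM) scaling the split of all calls moved, with 51.2% of them higher against 36.5% in the main test, and 5 of the 10 genes were higher, beside 17.1% of all genes. Leaving out CTL replicate 2, CTL replicate 4, CHIR replicate 3 or CHIR replicate 4 left 2 of the 10 higher, beside 1370 to 1487 of the 14264 genes tested. Leaving out CTL replicate 3 or CHIR replicate 2 gave 5 of the 10, beside 1723 and 1566 of all genes tested. Without the filter 2 of the 10 were higher, *Egr1* and *Ier2*, beside 5.31% of the genes then tested. The median log2 fold change of the 10 genes was 0.43, and that of all genes tested was -0.05. *Egr1* had the highest fold change of the 10 and *Jund* the lowest. By family, 1 of 3 FOS genes, 0 of 3 JUN genes and 2 of 3 EGR genes were called, and *Ier2*. With the replicate number as a block, which pairs the same-numbered libraries, 5 of the 10 were higher and 1 was lower, beside 15.4% and 26.1% of all genes tested, and the added calls were both JUN genes, *Junb* higher and *Jund* lower.

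**Figure D2:**
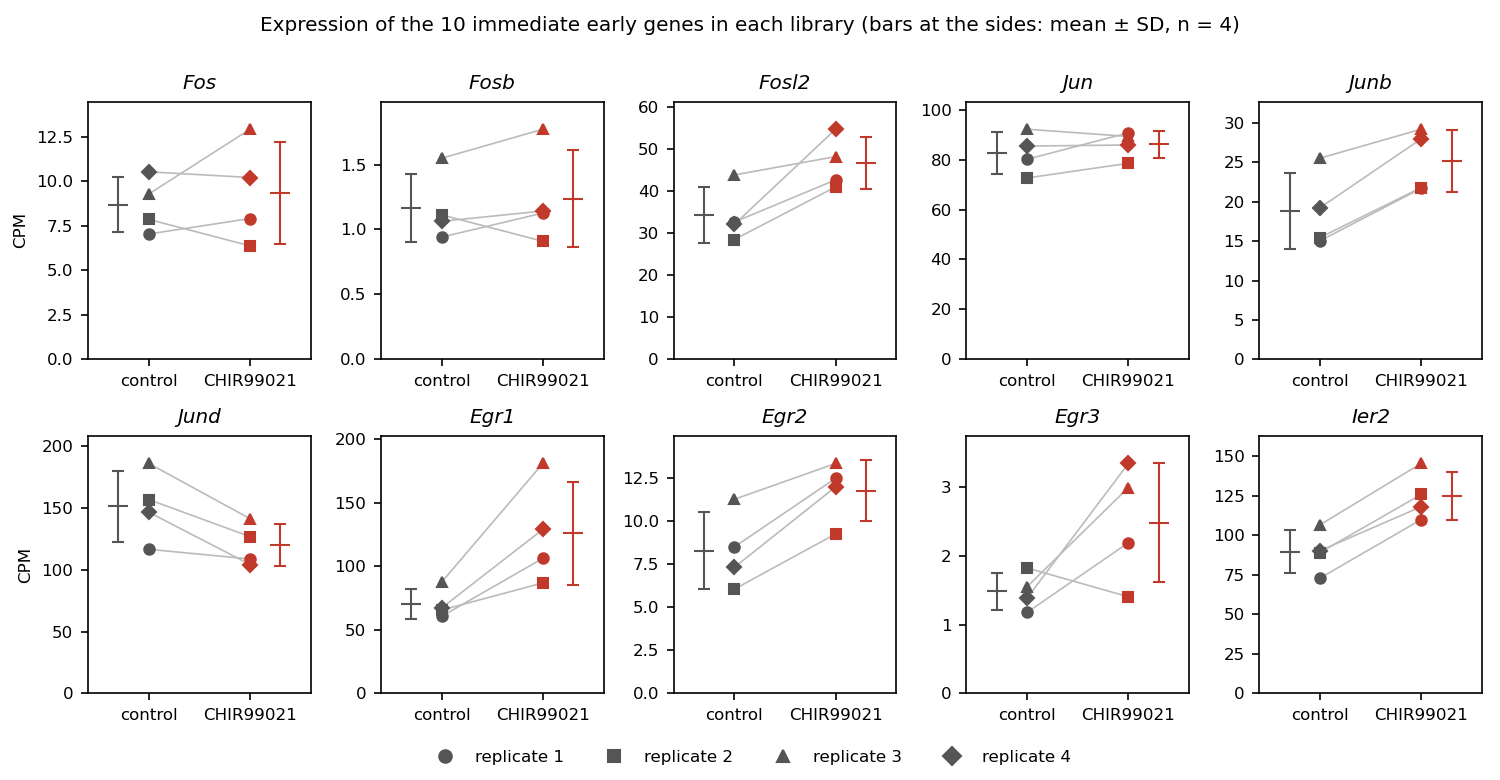
CPM of each of the 10 genes in every library of control (CTL) and CHIR99021 (CHIR); the marker shape gives the replicate, gray lines join replicates of the same number, side bars are mean ± SD (n = 4), and each panel has its own axis from 0. Ier2 is the gene whose groups do not overlap, and replicate 3 is the highest CTL library for 8 of the 10 genes.

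*Fos* (ENSMUSG00000021250, chr12:85473890-85477273, plus strand) encodes the FOS protein, the partner of JUN in classical AP-1. It was at 7.05, 7.87, 9.29 and 10.5 CPM in CTL replicates 1 to 4 and at 7.91, 6.38, 12.9 and 10.2 CPM in the CHIR replicates of the same numbers. The groups overlapped almost wholly, and CHIR held both the lowest and the highest library. The log2 fold change was 0.07 (SE 0.188, 95% interval -0.35 to 0.48, limma adjusted p = 0.809). Its direction rested on single libraries: it was -0.015 without CTL replicate 1 and -0.086 without CHIR replicate 3.

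*Fosb* (ENSMUSG00000003545, chr7:19302696-19310051, minus strand), a FOS relative whose protein also pairs with JUN proteins, was the lowest of the 10 genes. CTL replicates 1 to 4 held 0.941, 1.11, 1.55 and 1.06 CPM, and CHIR replicates 1 to 4 held 1.13, 0.909, 1.77 and 1.14 CPM. Replicate 3 was the highest library of either group, and the ranges overlapped. The log2 fold change was 0.04 (SE 0.158, 95% interval -0.31 to 0.39, limma adjusted p = 0.870), and it was -0.0099 without CTL replicate 1 and -0.067 without CHIR replicate 3.

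*Fosl2* (ENSMUSG00000029135, chr5:32135801-32157842, plus strand) encodes FRA2, a FOS family member that lacks the strong activation domain of FOS. It was at 32.6, 28.5, 43.8 and 32.1 CPM in CTL replicates 1 to 4 and at 42.7, 41.0, 48.2 and 54.7 CPM in CHIR. The groups overlapped only through CTL replicate 3, which lay above CHIR replicates 1 and 2, and CHIR was higher in each of the 4 same-numbered pairs. *Fosl2* rose from 34.3 ± 6.65 to 46.7 ± 6.20 CPM (SD, n = 4), a log2 fold change of 0.44 (SE 0.128, 95% interval 0.16 to 0.73, limma adjusted p = 0.0213). The call was lost without CTL replicate 2 (adjusted p = 0.0614), CTL replicate 4 (0.0586), CHIR replicate 3 (0.0534) or CHIR replicate 4 (0.0606). The log2 fold change was 0.36 to 0.57 over the 8 fits that left out a library.

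*Jun* (ENSMUSG00000052684, chr4:95049034-95052222, minus strand) encodes the founding JUN protein and has a single exon. CTL replicates 1 to 4 held 80.2, 72.7, 92.2 and 85.5 CPM, and the CHIR replicates held 90.8, 78.6, 89.3 and 85.9 CPM. The CHIR libraries lay inside the CTL range, and the spread within each group was small (SD 8.27 and 5.45 CPM, n = 4). Its log2 fold change of 0.06 (SE 0.077, 95% interval -0.11 to 0.23, limma adjusted p = 0.575) had the narrowest interval of the 10 genes. The antisense gene *Junos* overlaps *Jun* by 689 bases and was at 0.726 to 1.47 CPM. Whether the counting used strand is not given in the sources used here.

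*Junb* (ENSMUSG00000052837, chr8:84974484-84978718, minus strand) encodes a JUN protein that can act against JUN at some targets. It was at 15.0, 15.4, 25.5 and 19.2 CPM in CTL and at 21.7, 21.8, 29.2 and 28.0 CPM in CHIR replicates 1 to 4. CTL replicate 3 lay inside the CHIR range, and the other 3 CTL libraries lay below it. The log2 fold change was 0.42 (SE 0.161, 95% interval 0.06 to 0.78) and did not pass (limma adjusted p = 0.0669). CHIR was higher in each of the 4 same-numbered pairs, by 0.19 to 0.52 on the log2 scale, and with the replicate number as a block the same difference passed (adjusted p = 0.00236). It also passed without CTL replicate 3 (log2 fold change 0.57, adjusted p = 0.00806). That was its 1 call in the 8 fits that left out a library, where the adjusted p reached 0.168. In the 9 other settings *Junb* was called in 3. *Prdx2* lies on the opposite strand, overlaps *Junb* by 351 bases and was at 482 to 597 CPM, so reads of *Prdx2* could enter the *Junb* value if strand was not used. *Prdx2* itself did not pass (adjusted p = 0.577).

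*Jund* (ENSMUSG00000071076, chr8:70698949-70700616, plus strand), the JUN gene whose transcript many resting cells hold at a steady level, had the highest CPM of the 10 genes in CTL. CTL replicates 1 to 4 held 117, 157, 186 and 146 CPM, and the CHIR replicates held 109, 127, 141 and 104 CPM. CHIR was lower in each of the 4 pairs, although CTL replicate 1 lay inside the CHIR range. The log2 fold change was -0.32 (SE 0.134, 95% interval -0.62 to -0.03) and did not pass (limma adjusted p = 0.0876). With the replicate block it passed as lower (adjusted p = 0.00309), and without CTL replicate 1 it passed at a log2 fold change of -0.44 (adjusted p = 0.0161). These were its 1 call in the 9 other settings and its 1 call in the 8 fits that left out a library. With TMM scaling the log2 fold change was -0.26 (limma adjusted p = 0.163), and with DESeq2 it was -0.27 (adjusted p = 0.106). *Gm11175*, an antisense gene sharing 919 bases with *Jund*, was at 1.69 to 3.49 CPM.

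With *Junb* higher and *Jund* lower in every pair, the ratio of their CPM separated the groups. It was 0.129, 0.0986, 0.137 and 0.131 in CTL and 0.200, 0.172, 0.207 and 0.269 in CHIR replicates 1 to 4. This was 1 of 9 ratios formed within the FOS, JUN and EGR families, and the other 8 overlapped between groups. It was picked for its separation after the values were seen and was not tested. CPM of the 2 genes share the library total, which cancels in the ratio.

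*Egr1* (ENSMUSG00000038418, chr18:34859823-34864984, plus strand) encodes a zinc finger activator induced by growth factors through ERK and SRF. It was at 60.6, 65.6, 87.5 and 67.3 CPM in CTL and at 106, 87.0, 181 and 129 CPM in CHIR replicates 1 to 4. The overlap of the groups came down to CTL replicate 3, which exceeded CHIR replicate 2 by less than 1 CPM. *Egr1* rose from 70.2 ± 11.9 to 126 ± 40.6 CPM (SD, n = 4), a log2 fold change of 0.79 (SE 0.191, 95% interval 0.37 to 1.21, limma adjusted p = 0.00854). It was called in each of the 8 fits that left out a library, at log2 fold changes of 0.60 to 0.95. Only 2.95% of all genes tested were called higher with a log2 fold change over 0.5, and *Egr1* was the 1 gene of the 10 that met this. Its CHIR libraries were also the more scattered, with a coefficient of variation of 32.3% against 16.9% in CTL.

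*Egr2* (ENSMUSG00000037868, chr10:67535475-67542188, plus strand), also called Krox20, is needed by Schwann cells to form myelin. CTL replicates 1 to 4 held 8.51, 6.06, 11.3 and 7.33 CPM, and the CHIR replicates held 12.5, 9.28, 13.4 and 12.0 CPM. CTL replicate 3 lay above CHIR replicate 2, and CHIR was higher in all 4 pairs. *Egr2* rose from 8.30 ± 2.23 to 11.8 ± 1.77 CPM (SD, n = 4), a log2 fold change of 0.48 (SE 0.167, 95% interval 0.11 to 0.85, limma adjusted p = 0.0469). The call is close to the threshold, and it was kept only without CTL replicate 3 (adjusted p = 0.00845) or CHIR replicate 2 (0.0245). Leaving out CTL replicate 1, 2 or 4 or CHIR replicate 1, 3 or 4 gave adjusted p of 0.0714 to 0.122, at log2 fold changes of 0.36 to 0.50.

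Markers of Schwann cells and glia moved the other way from *Egr2*. Of the 8 listed, 7 were tested, 0 were higher and 5 were lower (4 with TMM scaling), beside 12.3% and 21.4% of all genes tested. The summed level of the list was 668 to 731 CPM in CTL and 477 to 511 CPM in CHIR. Most of this sum came from *Erbb3* and *Sox10*. *Erbb3*, the receptor that carries the neuregulin signal into Schwann cells, fell from 420 ± 12.9 to 269 ± 8.56 CPM, a log2 fold change of -0.64 (limma adjusted p = 8.28e-06; SD, n = 4). *Sox10*, listed here as a marker of glia, went from 233 ± 20.5 to 195 ± 10.5 CPM (SD, n = 4; log2 fold change -0.25, limma adjusted p = 0.0174, and 0.0555 with TMM scaling). The part of the glial markers in the *Egr2* result was not tested, nor was which cells held them.

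*Egr3* (ENSMUSG00000033730, chr14:70077203-70082614, plus strand) encodes an EGR factor that mice need to form muscle spindles. It was at 1.18, 1.82, 1.55 and 1.38 CPM in CTL and at 2.19, 1.40, 2.99 and 3.34 CPM in CHIR replicates 1 to 4. CHIR replicate 2 lay inside the CTL range, while the other 3 CHIR libraries lay above every CTL library. The log2 fold change was 0.46 (SE 0.188, 95% interval 0.04 to 0.87) and did not pass (limma adjusted p = 0.0850). Without CHIR replicate 2 it passed at 0.62 (adjusted p = 0.0147). That was its 1 call in the 8 fits that left out a library, where the adjusted p reached 0.220. In the 9 other settings *Egr3* was called in 2. The ratio of mean CPM was 1.67, near the 1.79 of *Egr1*, and at this level the added 1 CPM narrows the log2 difference.

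*Ier2* (ENSMUSG00000053560, chr8:84661331-84662852, minus strand) has a single exon and encodes a short nuclear protein that many growth factors induce. CTL replicates 1 to 4 held 72.9, 89.1, 107 and 90.2 CPM, and the CHIR replicates held 110, 126, 145 and 118 CPM. Every CHIR library lay above every CTL library, which was so for 1 of the 10 genes and for 12.7% of all genes tested. *Ier2* rose from 89.7 ± 13.8 to 125 ± 15.2 CPM (SD, n = 4), a log2 fold change of 0.48 (SE 0.112, 95% interval 0.23 to 0.72, limma adjusted p = 0.00767). It was called in each of the 8 fits that left out a library and in all 9 other settings.

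**Figure D3:**
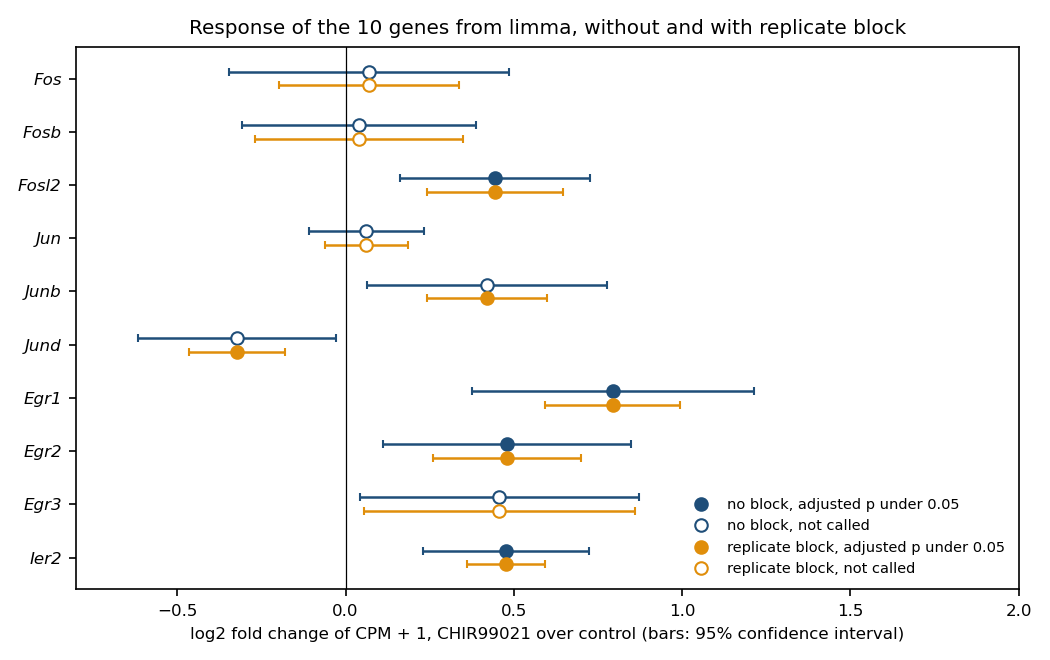
Log2 fold change of CHIR over CTL on the log2(CPM + 1) scale for the 10 genes, with 95% intervals from limma (4 libraries per group), without and with the replicate block; filled points passed the test. Egr1 is the highest at 0.79, Fos, Fosb and Jun lie close to 0, Jund is the 1 gene below 0, at -0.32, and Junb and Jund are filled with the block only.

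Many of the 10 genes were highest in the same replicate number. Replicate 3 was the highest CTL library for 8 of the 10 genes and the highest CHIR library for 7, while among all genes tested it was the highest for 30.6% and 23.1%. Replicate 1 was the lowest CTL library for 7 of the 10, and replicate 2 was the lowest CHIR library for 7. The shares of all genes lowest in these libraries were not counted. CHIR exceeded CTL in each of the 4 same-numbered pairs for 5 genes, *Fosl2*, *Junb*, *Egr1*, *Egr2* and *Ier2*, against 20.8% of all genes tested. CTL exceeded CHIR in each pair for *Jund*, against 33.2% of all genes tested. By pair, 9, 6, 8 and 8 of the 10 genes were higher in CHIR for numbers 1 to 4, and the share of all genes was not counted by pair. Without replicate 3 in both groups, a fit added after the data were seen, 5 were called higher, the fifth being *Junb* (log2 fold change 0.50, adjusted p = 0.0223), beside 9.55% of all genes tested, and 0 lower.

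Transcript levels were compared between genes per kilobase of exon. The order in CTL was *Jund* (90.8 ± 17.2 CPM per kb), *Ier2* (58.9 ± 9.04), *Jun* (25.9 ± 2.59), *Egr1* (15.7 ± 2.65), *Junb* (8.18 ± 2.11), *Fos* (3.69 ± 0.658), *Fosl2* (3.54 ± 0.687), *Egr2* (2.44 ± 0.656), *Egr3* (0.336 ± 0.0617) and *Fosb* (0.187 ± 0.0424), each as CPM per kb, mean ± SD, n = 4. The libraries of *Fos* and *Fosl2*, of *Fosl2* and *Egr2* and, at their edges, of *Jund* and *Ier2* overlapped, and no other neighbours in this order did. In CHIR, *Ier2* stood first at 82.0 ± 9.99 CPM per kb with *Jund* at 72.1 ± 10.2, and *Egr1*, at 28.1 ± 9.06, lay beside *Jun*, at 27.0 ± 1.71 (SD, n = 4). Neither of those pairs differed beyond its spread in CHIR, and *Fos* overlapped with both *Fosl2* and *Egr2*. In the CTL order, *Jund* and *Jun*, among the highest, were not called, while *Ier2*, between them, was. *Egr3* and *Fosb*, the lowest, were not called, and at such levels the added 1 CPM narrows the log2 difference. The relation of level to response was not tested.

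**Figure D4:**
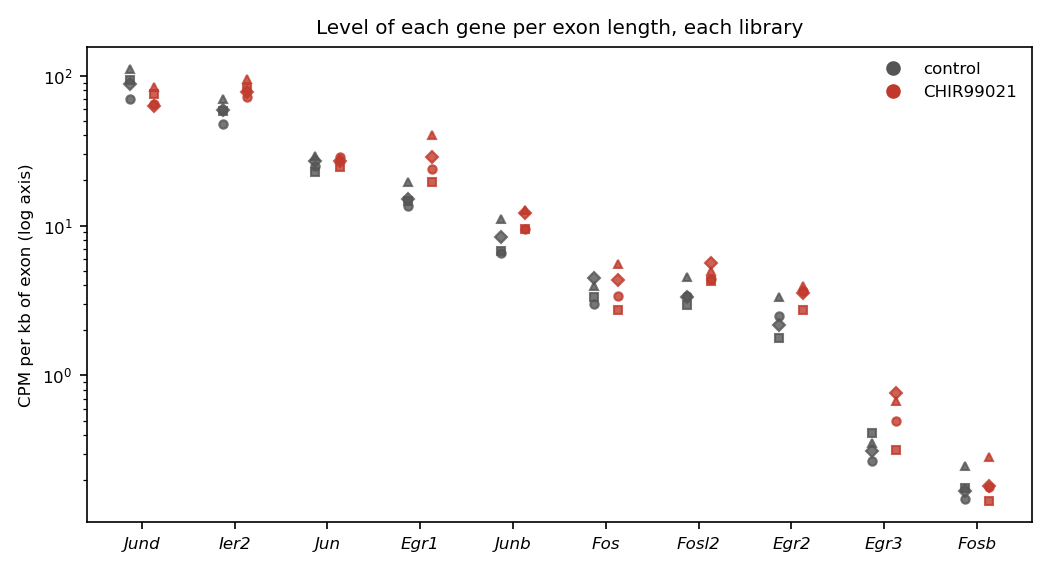
CPM per kilobase of exon of the 10 genes in each library of control (CTL) and CHIR99021 (CHIR), on a log axis, with the marker shape giving the replicate number. Jund leads in CTL at a mean of 90.8 CPM per kb and Ier2 leads in CHIR at 82.0, and Fosb is the lowest in both groups.

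The response of the 10 genes was compared between the sexes in the labels with an interaction term. None of them passed, and over all 14264 genes tested limma called 0, with 181 at an unadjusted p under 0.05. A replicate block gave 2 calls over all genes, and no count-based test of the interaction was run. The smallest unadjusted p among the 10 was for *Fosl2*, whose log2 fold change was 0.26 in females and 0.63 in males (difference 0.38, 95% interval -0.18 to 0.93, limma unadjusted p = 0.158, adjusted p = 1.00). *Fos* went to 0.29 in females and -0.15 in males (difference -0.45, 95% interval -1.34 to 0.45, limma adjusted p = 1.00). With 2 libraries per sex and group these intervals are wide. Between replicates 1 and 4 and replicates 2 and 3, the difference in response passed for 0 of the 10 genes and for 4 of all genes tested. Within replicates 1 and 4 the log2 fold change of *Egr1* was 0.87, and within replicates 2 and 3 it was 0.72, where it did not pass (adjusted p = 0.144). *Ier2* was 0.49 and 0.47 and passed within both. It was the 1 gene of the 10 called higher within replicates 2 and 3, beside 4.28% of all genes tested.

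Relatives of AP-1, whose proteins share its dimers or sites, numbered 8 tested of 11 listed. Of these, 2 were higher and 1 was lower, beside 12.3% and 21.4% of all genes tested. Their median log2 fold change was 0.16, against -0.05 for all genes. The small MAF genes *Mafg* (68.4 ± 6.22 to 90.2 ± 9.65 CPM, limma log2 fold change 0.39, adjusted p = 0.00568; SD, n = 4) and *Mafk* (12.9 ± 0.597 to 16.6 ± 1.01 CPM, 0.34, adjusted p = 0.00798) rose. *Jdp2*, a repressor of AP-1 named after its values were seen, fell from 18.7 to 14.4 CPM, a log2 fold change of -0.35 (limma adjusted p = 0.0137). *Atf3*, a stress-induced partner of JUN and also named after its values were seen, was at 3.33 ± 0.398 and 5.46 ± 1.98 CPM (SD, n = 4) and did not pass (log2 fold change 0.53, limma adjusted p = 0.0628, and 0.0142 with the replicate block). The EGR corepressors *Nab1* (0.14, adjusted p = 0.170) and *Nab2* (0.12, adjusted p = 0.393), genes that EGR factors induce to limit their own action, did not pass. *Egr4* and *Wt1*, the other 2 of that list, were under the minimum.

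Other immediate early genes did not move in 1 direction. Of 39 listed, 38 were tested and 21 were not called. Of the 38, 5 were higher and 12 were lower, beside 12.3% and 21.4% of all genes tested. The median log2 fold change of the list was -0.07, against -0.05 for all genes. With TMM scaling 7 were higher and 8 lower. *Rhob*, a small GTPase gene, rose from 97.7 ± 14.8 to 175 ± 18.6 CPM, a log2 fold change of 0.84 (limma adjusted p = 0.000156; SD, n = 4). *Nr4a1*, an orphan nuclear receptor gene named after its values were seen, rose from 15.8 to 24.3 CPM (0.59, limma adjusted p = 0.00379). *Sgk1*, a kinase gene induced by serum and glucocorticoids, fell from 49.6 ± 4.00 to 28.3 ± 1.94 CPM, a log2 fold change of -0.79 (limma adjusted p = 3.73e-05; SD, n = 4). The Krüppel-like factor genes *Klf2* (2.70 ± 0.613 to 0.762 ± 0.129 CPM, -1.06, adjusted p = 0.000421) and *Klf4* (25.7 ± 2.66 to 17.1 ± 1.06 CPM, -0.56, adjusted p = 0.00072) also fell. *Ctgf*, a target of YAP and SRF named after its values were seen, fell from 84.2 ± 13.0 to 42.6 ± 9.60 CPM, a log2 fold change of -0.98 (limma adjusted p = 0.000884; SD, n = 4).

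**Figure D5:**
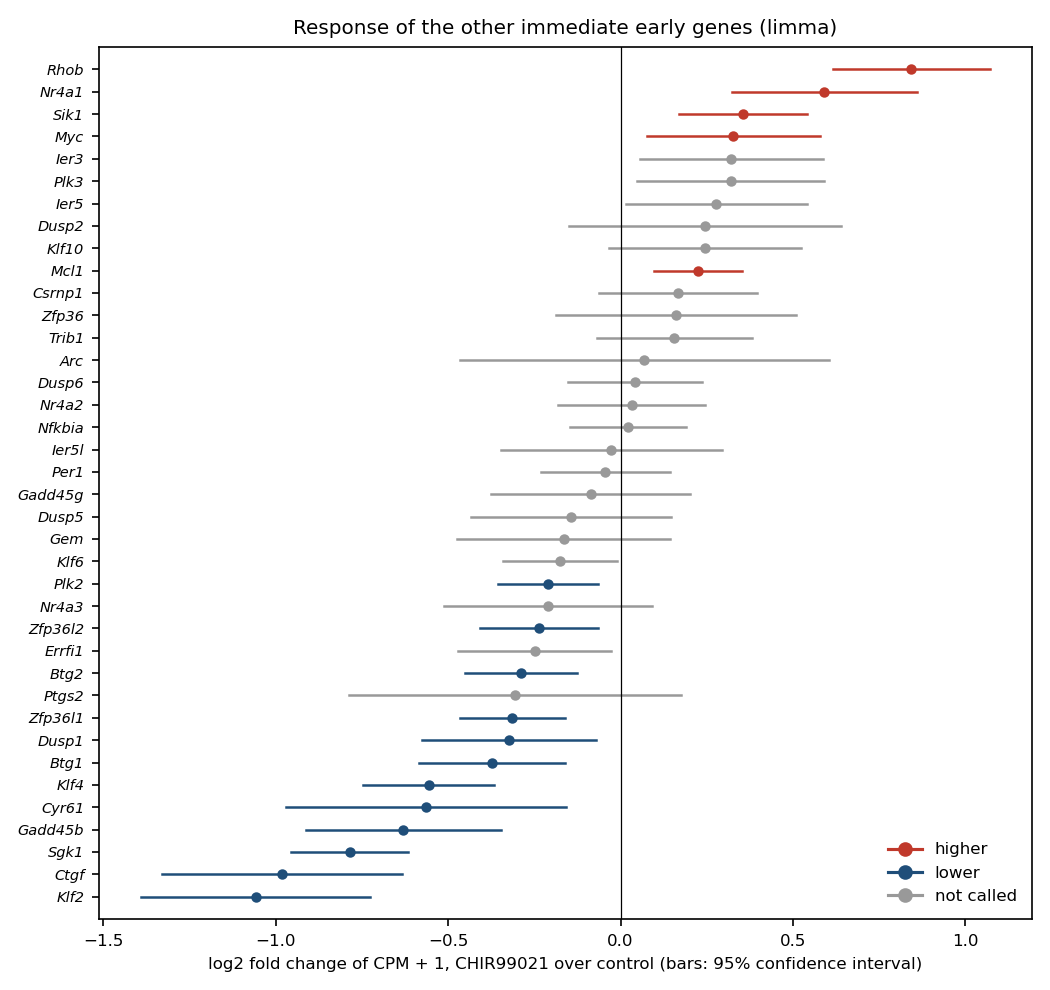
Log2 fold change of CHIR over CTL on the log2(CPM + 1) scale for the 38 other immediate early genes tested, with 95% intervals from limma and calls marked by color. Rhob is the highest at 0.84 and Klf2 the lowest at -1.06, with 5 genes called higher and 12 called lower.

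Upstream of these genes, the list of SRF, its cofactors, CREB and ERK had 1 of 10 members higher and 0 lower. Over all genes tested, 12.3% were called higher and 21.4% lower. *Srf* went from 70.8 ± 6.53 to 83.5 ± 8.32 CPM (SD, n = 4; log2 fold change 0.23, limma adjusted p = 0.0484), and *Elk1*, an ETS partner of SRF, did not pass (-0.14, adjusted p = 0.119). The 9 tested of 10 kinases and ubiquitin ligases that act on JUN proteins held 0 calls in limma, and 2 with TMM scaling, the ligase gene *Fbxw7* (log2 fold change 0.24, adjusted p = 0.0205) and *Gsk3a* (0.18, adjusted p = 0.0451), which encodes a form of the drug's own target.

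Among 13 genes listed as AP-1 targets, 9 were tested, 2 were higher and 2 were lower, with a median log2 fold change of 0.21. Over all genes tested, 12.3% were called higher and 21.4% lower. *Ccnd1*, the cyclin D1 gene and also a Wnt target in the textbooks, rose from 293 ± 19.0 to 602 ± 60.7 CPM, a log2 fold change of 1.03 (limma adjusted p = 8.18e-06; SD, n = 4), and *Cdkn1a*, a cell cycle inhibitor gene, from 78.9 ± 12.0 to 135 ± 17.1 CPM (0.78, adjusted p = 0.00045). *Plau*, the urokinase gene (-0.57, limma adjusted p = 0.00145), and *Spp1*, which encodes osteopontin (-0.84, adjusted p = 0.00184), fell. Cytoskeletal targets of SRF with its MRTF cofactors had 0 of 9 higher and 3 lower (2 with TMM scaling), among them *Acta2* (-0.88, limma adjusted p = 0.00757) and *Myl9* (-0.53, adjusted p = 0.000703), genes of the contractile apparatus. Heat shock genes had 3 of 8 tested higher and 0 lower. The 3 were *Hspe1*, *Hsph1* and *Hsp90aa1*. *Hspa1b* (-0.02) and *Hspb1* (-0.39) were not called, and *Hspa1a* was under the minimum. Apart from *Hspe1*, these genes were named after their values were seen. *Hspe1* rose from 102 ± 6.78 to 156 ± 7.79 CPM (0.61, limma adjusted p = 4.15e-05; SD, n = 4).

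Marker lists of the other cell types an explant holds were read beside these values. Among all genes tested, 12.3% were called higher and 21.4% lower, and no list was tested against these shares. Neurons had 0 of 6 tested markers higher and 2 lower (summed level 71.1 to 97.7 CPM in CTL and 46.1 to 71.0 in CHIR), with *Tubb3* at 36.9 ± 6.82 and 35.6 ± 5.48 CPM and *Stmn2* at 18.2 ± 3.50 and 7.49 ± 0.656 CPM (SD, n = 4). Macrophages had 0 of 4 higher and 2 lower, *Csf1r* and *Cx3cr1* (1 lower with TMM scaling), and the list summed to 13.9 to 20.2 CPM in CTL and 10.9 to 15.1 CPM in CHIR. Cartilage had 0 of 7 higher and 5 lower, *Col2a1* and *Col9a1* included, at summed levels of 4555 to 5882 CPM and 3566 to 4077 CPM. Otic epithelium had 0 of 8 higher and 2 lower (1 with TMM scaling), at 3584 to 3820 CPM and 3482 to 3821 CPM. Endothelium had 1 of 8 lower, *Emcn*, with *Cdh5* not called. Mesenchyme had 2 of 8 higher (3 with TMM scaling) and 3 lower, *Col3a1* and *Pdgfra* among the latter. Red cells had 0 of 5 called, with *Hba-a1* and *Hbb-bs* leading that list. The part of these cell types in the response of the 10 genes was not tested.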

How the data were processed

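RNA was extracted from 8 cochlear explant samples and sequenced as polyadenylated, strand-specific libraries. The authors mapped the reads with HISAT2 to GRCm38, per the labels and methods. The counting tool is not given in the sources used here. The deposited table holds CPM per gene and library, computed by the authors. Its columns of the authors' own comparisons (fold ratios, log2 fold changes, p-values and false discovery rates) were not used. Every CPM value was a whole number of reads within 0.001 read, 100% of them, so reads were recovered for edgeR and DESeq2 as alternatives. These called 4600 of 18116 and 5453 of 18228 genes tested.

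limma 3.58.1 (R 4.3.3) with a trend was fitted to log2(CPM + 1), keeping the genes whose CPM averaged 1 or more, with Benjamini-Hochberg adjustment at 0.05. edgeR was 4.0.16 and DESeq2 1.42.0. Exon length came from GENCODE M21, which held 42459 (99.3%) of the gene identifiers, and upstream sequence from RefSeq.

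Same-numbered libraries of the 2 groups deviated together (r = 0.51, 0.25, 0.35 and 0.34 over genes for numbers 1 to 4, against at most 0.17 for other numbers). The labels share a number and do not say what it marks. The numbers were taken to pair the libraries from these correlations, and p-values without the block do not use the pairing.

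The 10 genes and the gene lists were chosen with earlier results of these data known. Of each other list, genes were named with an adjusted p under 0.05 and a log2 fold change over 0.5 in size (at most the 4 with the smallest p, otherwise the 2 with the smallest p), and of marker lists the 2 with the highest mean CPM. Of the Wnt check, only 2 are named. Alternatives were TMM scaling, edgeR with either scaling, DESeq2, a pseudocount of 0.1, no filter, the replicate block, leaving out each library, and replicates 1 and 4 or 2 and 3 alone.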

Additional observations from a re-analysis of the deposited data

How the results depend on the processing

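*Egr1* and *Ier2* kept their calls without each of the 8 libraries, and *Ier2* in all 9 other settings. Over the 8 fits that left out a library, genes called higher among all tested numbered 1370 to 1723 and lower 2492 to 2887, and 2 to 5 of the 10 genes were higher and 0 to 1 lower. The log2 fold changes in those fits were -0.086 to 0.22 for *Fos*, -0.067 to 0.12 for *Fosb*, 0.36 to 0.57 for *Fosl2*, 0.00 to 0.12 for *Jun*, 0.33 to 0.57 for *Junb*, -0.44 to -0.22 for *Jund*, 0.60 to 0.95 for *Egr1*, 0.36 to 0.62 for *Egr2*, 0.34 to 0.62 for *Egr3* and 0.38 to 0.56 for *Ier2*. *Junb* was called with TMM scaling (log2 fold change 0.48, adjusted p = 0.0440) and by DESeq2 (0.49, adjusted p = 0.0117). With the replicate block *Junb* (0.42) was called higher and *Jund* (-0.32) lower, which made 1 of the 10 genes lower, and no other call among the 10 changed. Without the filter 26831 genes were tested, 2 of the 10 were higher, and *Fosl2* (0.44, adjusted p = 0.0721) and *Egr2* (0.48, adjusted p = 0.133) were not called. *Egr3* was called by DESeq2 (0.81, adjusted p = 0.0210) and within replicates 1 and 4 (0.71, adjusted p = 0.0344). Within replicates 2 and 3, a fit of 4 libraries, 1 of the 10 was higher, *Fosb* was -0.012, and *Fosl2* (0.32), *Egr1* (0.72) and *Egr2* (0.38) were not called. Over all genes, DESeq2 with its own scaling called 2765 of 18228 tested higher, against 1753 of 14264 in the main test. Of the same 14264, replicates 1 and 4 alone gave 1154 higher, and replicates 2 and 3 alone 611 higher and 1057 lower. Without replicate 3 in both groups *Fos* was -0.053 and *Junb* was called at 0.50. The settings differed in libraries, genes tested, scaling or model, and the cause of these changes was not tested.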
